A study of Mus musculus with 12 samples.

Results

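The NRF2 antioxidant genes were followed in MODE-K cells, a line derived from mouse small-intestinal epithelium, after exposure to gamma rays. The group held 10 genes, set by symbol with no measured value in the rule: Nfe2l2, Keap1, Slc7a11, Gclc, Gclm, Txnrd1, Srxn1, Nqo1, Hmox1 and Osgin1. These genes, and the lists set beside them below, were nevertheless chosen with earlier results of these data known. Their counts are therefore descriptions and not independent evidence. All 10 were found among the 22036 known genes of a table of 33625 genes, and all 10 passed the filter on low counts. All are protein-coding genes. On GRCm38 the regulators lie at chr2:75675513-75704641 (Nfe2l2, minus strand) and chr9:21229730-21239361 (Keap1, minus), and the glutathione genes at chr3:49892526-50443614 (Slc7a11, minus), chr9:77754535-77794485 (Gclc, plus) and chr3:122245557-122270732 (Gclm, plus). The others lie at chr10:82833951-82897712 (Txnrd1, plus), chr2:152105516-152111376 (Srxn1, plus), chr8:107388225-107403206 (Nqo1, minus), chr8:75093621-75100589 (Hmox1, plus) and chr8:119434124-119446256 (Osgin1, plus). There were 12 RNA-seq libraries from wild-type cells in 4 groups of 3: cells taken 48 h after 12 Gy (12Gy_48h), 24 h after 12 Gy (12Gy_24h) and 48 h after 4 Gy (4Gy_48h), and unirradiated cells taken at 0 h (control). No unirradiated cells taken at 24 h or 48 h were analysed here, and the effects of dose and of time in culture cannot be told apart in any comparison with control. Nothing in the labels says whether the 3 libraries of a group came from different cultures, and p-values therefore reflect library-to-library spread that could be purely technical.

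NRF2, the protein product of Nfe2l2, is a transcription factor that KEAP1 holds in the cytoplasm and delivers to a ubiquitin ligase for breakdown. Oxidants and electrophiles modify cysteines of KEAP1, NRF2 then escapes breakdown, pairs with a small MAF protein in the nucleus and binds antioxidant response elements. Its targets make glutathione, reduce thioredoxin, detoxify quinones and break down heme, and ionizing radiation is a textbook source of the oxidants that these enzymes handle. Because NRF2 is controlled largely through protein breakdown, its own mRNA is not a measure of its activity.

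Library totals ran from 3616416 to 4831641 assigned reads, and the members had between 7 reads (Osgin1) and 1319 reads (Hmox1) in a library. Loci that the table marks as new took 14.0 to 15.1% of reads at 12Gy_48h, 11.9 to 12.0% at 12Gy_24h and 15.1 to 16.9% at 4Gy_48h, against 19.8 to 21.7% in control. Over the 9809 known genes tested, the log2 fold change against control had a median of 0.20 for 12Gy_48h, 0.23 for 12Gy_24h and 0.14 for 4Gy_48h. Fitted to known genes alone, without the new loci, the medians were 0.01, -0.00 and -0.01, so each call below is given with that fit as well wherever the call differs. The labelled epithelial type did not show in its defining markers, since Epcam, Cdh1, Krt8, Krt19, Cldn3, Cldn7 and Vil1 each had at most 2 reads in any library. The summed level of the 9 epithelial markers was 16.6 to 19.9 CPM (a gene's reads scaled to a common library total) at 12Gy_48h, 24.3 to 26.9 CPM at 12Gy_24h and 13.7 to 19.6 CPM at 4Gy_48h, against 10.3 to 14.5 CPM in control, nearly all of it Krt18 and Tjp1. The 8 fibroblast and mesenchymal markers, mainly Vim and Col1a2, summed to 1473 to 2010 CPM at 12Gy_48h, 2277 to 2723 CPM at 12Gy_24h and 1241 to 1724 CPM at 4Gy_48h, against 691 to 1119 CPM in control. Most of this sum was Vim, and the 4 markers tested did not all go its way: at 12Gy_24h Vim (log2 fold change 1.86, edgeR adjusted p = 2.31e-06) and Col1a2 (0.81, 2.96e-05) were higher, Pdgfrb was lower (-1.63, 0.0140) and Col1a1 was not called (0.06, 0.881). The 8 immune markers summed to 67.3 to 75.4 CPM at 12Gy_48h, 41.2 to 54.2 CPM at 12Gy_24h and 34.0 to 41.1 CPM at 4Gy_48h, against 37.5 to 47.1 CPM in control, with Ptprc and Cd3e at 0 reads in every library. Most of this sum was Cd68, Cd14 and Lyz2. Of the 4 immune markers tested, Cd68 alone was called at 12Gy_48h (log2 fold change 0.94, edgeR adjusted p = 0.00225). Cd14 (0.42, 0.0523), Csf1r (1.15, 0.155) and Lyz2 (-0.15, 0.784) were not called there. The 6 endothelial markers summed to at most 1.38 CPM in any library. The part of these shifts in the results below was not tested, and in bulk RNA a change in the share of cells and a change in RNA per cell cannot be told apart.

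The promoters of 4 members are shown because they hold the DNA letters that NRF2 or the related AP-1 factors are known to bind. Windows of 300 bases, from 250 before to 50 after an annotated start, came from RefSeq on GRCm38.p6 and were found for 8 of the 10 members, with 3 starts for Txnrd1. Hmox1 and Gclc had no window, and the Osgin1 window lies within the gene's span given above, past its first base. Capitals mark matches on either strand to the core of the antioxidant response element (TGACNNNGC, the reverse complement on the other strand) or to the AP-1 core (TGANTCA). Both motifs were read on both strands, and no match to one overlapped a match to the other in these windows. All 4 windows lie on the plus strand of the genome and are written 5′ to 3′ along the gene: Srxn1 at chr2:152105274-152105573, Gclm at chr3:122245307-122245606, Txnrd1 (its second start) at chr10:82858956-82859255 and Osgin1 at chr8:119436897-119437196.
Srxn1: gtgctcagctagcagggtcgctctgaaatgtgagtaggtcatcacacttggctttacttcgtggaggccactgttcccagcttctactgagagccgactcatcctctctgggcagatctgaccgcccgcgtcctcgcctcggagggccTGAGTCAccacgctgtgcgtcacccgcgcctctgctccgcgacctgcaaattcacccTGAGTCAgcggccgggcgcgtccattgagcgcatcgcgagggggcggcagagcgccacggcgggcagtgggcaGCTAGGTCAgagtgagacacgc
Gclm: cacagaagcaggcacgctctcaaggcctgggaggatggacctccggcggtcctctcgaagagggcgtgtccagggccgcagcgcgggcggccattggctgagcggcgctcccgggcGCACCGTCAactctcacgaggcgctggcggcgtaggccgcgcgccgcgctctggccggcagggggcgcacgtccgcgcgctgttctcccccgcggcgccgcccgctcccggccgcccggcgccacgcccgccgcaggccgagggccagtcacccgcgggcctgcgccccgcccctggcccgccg
Txnrd1: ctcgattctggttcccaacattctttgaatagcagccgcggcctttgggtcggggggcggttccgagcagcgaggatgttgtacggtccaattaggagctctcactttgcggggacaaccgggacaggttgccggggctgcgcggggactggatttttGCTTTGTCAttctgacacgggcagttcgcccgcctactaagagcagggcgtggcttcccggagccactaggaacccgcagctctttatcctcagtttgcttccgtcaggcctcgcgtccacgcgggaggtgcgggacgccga
Osgin1: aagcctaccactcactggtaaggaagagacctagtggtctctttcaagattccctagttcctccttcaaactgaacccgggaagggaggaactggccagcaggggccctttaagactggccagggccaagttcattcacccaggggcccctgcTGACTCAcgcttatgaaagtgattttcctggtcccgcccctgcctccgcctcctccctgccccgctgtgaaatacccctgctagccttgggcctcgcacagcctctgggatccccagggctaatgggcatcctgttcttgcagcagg

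Counting from the start as base 0, the antioxidant response element core lay at bases 28 to 36 in Srxn1, -134 to -126 in Gclm and -92 to -84 at the second start of Txnrd1, in each case on the strand opposite to the gene. Nfe2l2 itself held one on the gene's strand at bases -240 to -232, in the window chr2:75704614-75704913 of the minus strand, so that 4 of the 8 members with a window had a match. Among all 27025 genes with a window, 14.0% had one, and among all 32851 windows 12.4%. The AP-1 core appeared at bases -102 to -96 and -45 to -39 in Srxn1 and at -97 to -91 in Osgin1, against 8.97% of all genes and 7.81% of all windows. The windows of Slc7a11, Nqo1 and Keap1 had neither set of letters, which says only that these letters were not in these 300 bases. A match is a description of the sequence and was not tied to any change in expression.

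**Figure D1:**
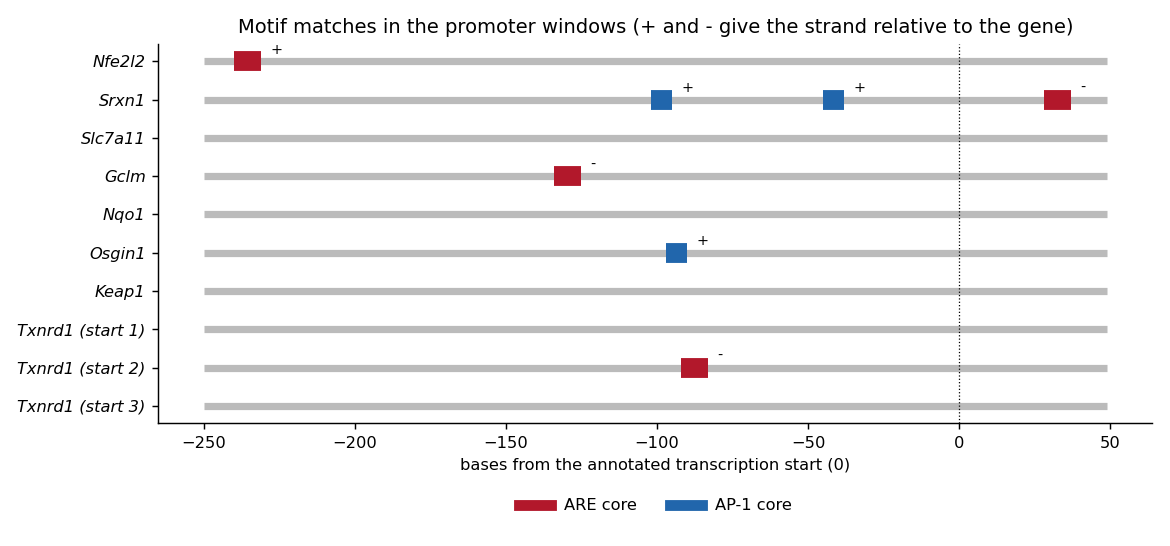
Motif matches in the 10 promoter windows of 8 members, by distance in bases from the annotated start (x axis, 0 is the start). Red blocks are antioxidant response element cores, blue blocks AP-1 cores, and + or - gives the strand relative to the gene. Matches fall in the windows of Nfe2l2, Srxn1, Gclm, Osgin1 and the second start of Txnrd1.

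The first question was whether the pathway's targets were higher after irradiation, and at which dose and time. Levels below are CPM after scaling by trimmed mean of M-values (TMM) over all genes, which is meant to correct for composition. Under this scaling the medians of known genes against control, given above, were all positive. The levels are not divided by gene length, so they compare a gene between libraries and not one gene with another. Tests are edgeR's two-sided quasi-likelihood test over 15086 genes, and a gene was called at a Benjamini-Hochberg adjusted p under 0.05. With 3 libraries against 3, the smallest p of an exact permutation test is 0.1, so single genes were tested only in the fit across all genes. Where all libraries of a group are said to stand above those of another, this describes these libraries. The share of all genes that do so is not given. The 3 comparisons with control share the control libraries, so they are not independent of each other.

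At 12Gy_48h against control, 8 of the 10 members rose and none fell, with a median log2 fold change of 0.75. Osgin1, Nqo1 and Hmox1 had the largest fold changes, while Nfe2l2 and Keap1 were not called. Among all known genes, 18.2% were called higher and 3.74% lower, with the median of 0.20 given above. With known genes alone 6 members rose, among all known genes 6.76% were called higher and 8.04% lower, and the members' median was 0.56. Of the members, DESeq2 called 7 higher, and none was lower at an unadjusted p under 0.05 in edgeR or at an adjusted p under 0.05 in DESeq2.

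At 12Gy_24h against control, 7 members rose and none fell, with a median log2 fold change of 0.84. Hmox1 and Nqo1 had the largest fold changes, and Gclm, Nfe2l2 and Keap1 were not called. Of all known genes 26.5% were called higher and 3.99% lower, with the median of 0.23 given above. With known genes alone 5 members rose, against 9.15% of all known genes higher and 7.91% lower, and the members' median was 0.61. DESeq2 called 7 higher, and none was lower at an unadjusted p under 0.05 in edgeR or at an adjusted p under 0.05 in DESeq2.

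At 4Gy_48h against control, 0 members were called by edgeR in either direction, and the median log2 fold change was 0.10, against 0.14 for all known genes. At an unadjusted p under 0.05, 1 member was higher, Osgin1, and 0 were lower, and DESeq2 called 0. Of all known genes 6.21% were called higher and 0.877% lower. With known genes alone 0 members were called, and 0.754% of known genes were higher and 0.57% lower. Without the second control library, which had the highest Nqo1 and Hmox1 of the 3 controls, Nqo1 was called at 4Gy_48h, with a log2 fold change of 1.09 and an edgeR adjusted p of 0.0361.

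At equal time, 12Gy_48h against 4Gy_48h, 7 members were higher and none lower, with a median log2 fold change of 0.69 against 0.05 for all known genes. Gclc, Nfe2l2 and Keap1 were not called. Of all known genes 2.79% were called higher and 1.55% lower. Leaving out 1 library changed the count of 7 to 5 without the first or the second 4Gy_48h library, 3 without the third, 3 without the first 12Gy_48h library and 2 without the second. The same 7 members passed with known genes alone, where 2.91% of known genes were higher and 3.22% lower. DESeq2 called 6 members and gave no adjusted p for Osgin1. None was lower at an unadjusted p under 0.05 in edgeR or at an adjusted p under 0.05 in DESeq2.

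At equal dose, 12Gy_48h against 12Gy_24h, 2 members were higher (Osgin1 and Gclm) and 1 was lower (Hmox1), with a median log2 fold change of -0.09 against -0.06 for all known genes. Of all known genes 9.97% were called higher and 15.6% lower. With known genes alone 2 members were higher and 0 lower, against 11.1% of known genes higher and 12.6% lower. At an unadjusted p under 0.05 the edgeR fit to all genes likewise had 2 members higher and 1 lower, and DESeq2 called 1 higher and 1 lower.

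**Figure D2:**
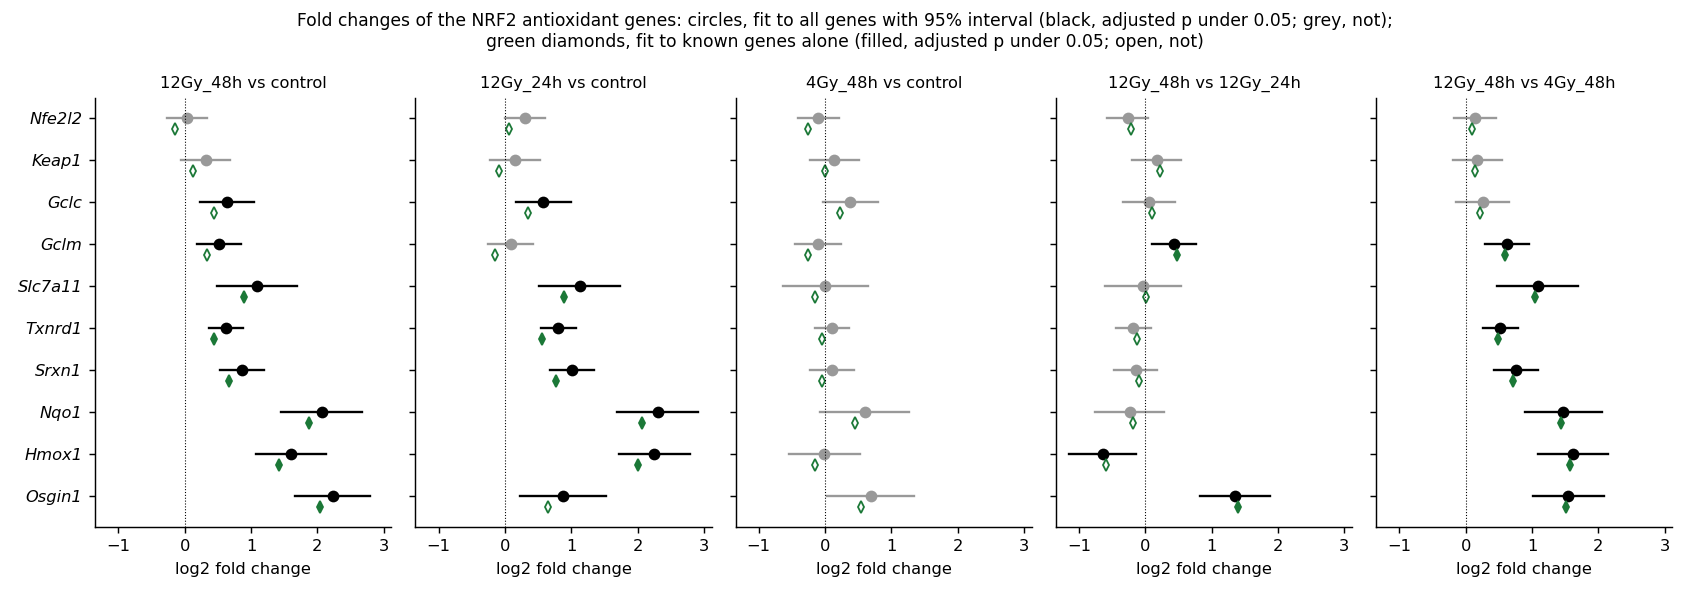
Log2 fold change (x axis) of each of the 10 genes in the 5 comparisons, the group named first over the group named second. Circles with 95% intervals are from the fit to all genes and green diamonds from the fit to known genes alone, with black circles and filled diamonds called at an adjusted p under 0.05. Black circles stand right of 0 for 8 genes at 12Gy_48h and 7 at 12Gy_24h against control, for none at 4Gy_48h, and for 7 in 12Gy_48h against 4Gy_48h.

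Of the regulators, Nfe2l2 encodes NRF2 itself. It measured 33.5, 37.4 and 42.9 CPM at 12Gy_48h, 41.9, 40.8 and 54.5 CPM at 12Gy_24h and 34.8, 33.1 and 35.3 CPM at 4Gy_48h, against 35.2, 34.6 and 41.3 CPM in control. The groups overlapped except that all 3 libraries at 12Gy_24h lay above those at 4Gy_48h, a comparison that was not tested. Its log2 fold change against control was 0.04 at 12Gy_48h (95% interval -0.27 to 0.34, edgeR adjusted p = 0.868), 0.31 at 12Gy_24h (-0.00 to 0.61, 0.0937) and -0.10 at 4Gy_48h (-0.41 to 0.21, 0.678). At 12Gy_24h it was called without a filter on low counts (adjusted p = 0.0180), without the third control library (0.0268) and without the second 12Gy_24h library (0.0227), while known genes alone gave a log2 fold change of 0.07 (0.791). Between 12Gy_48h and 12Gy_24h its log2 fold change was -0.27 (SE 0.14, adjusted p = 0.168), and between 12Gy_48h and 4Gy_48h 0.14 (SE 0.15, 0.626).

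Keap1 encodes the adaptor that marks NRF2 for breakdown. It measured 26.2, 18.8 and 25.4 CPM at 12Gy_48h, 18.8, 19.0 and 24.8 CPM at 12Gy_24h and 18.2, 24.2 and 19.7 CPM at 4Gy_48h, against 18.9, 17.4 and 20.1 CPM in control. One library in each irradiated group, and a second one at 12Gy_48h, stood above the control range, and the groups overlapped. The log2 fold change against control was 0.32 at 12Gy_48h (95% interval -0.05 to 0.69, edgeR adjusted p = 0.172), 0.15 at 12Gy_24h (-0.23 to 0.52, 0.521) and 0.14 at 4Gy_48h (-0.23 to 0.51, 0.642). It was not called in any of the 5 comparisons. An antisense gene, Gm16754, overlaps Keap1, and the strandedness of the counting is not given in the sources used here, so reads of the pair cannot be told apart.

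**Figure D3:**
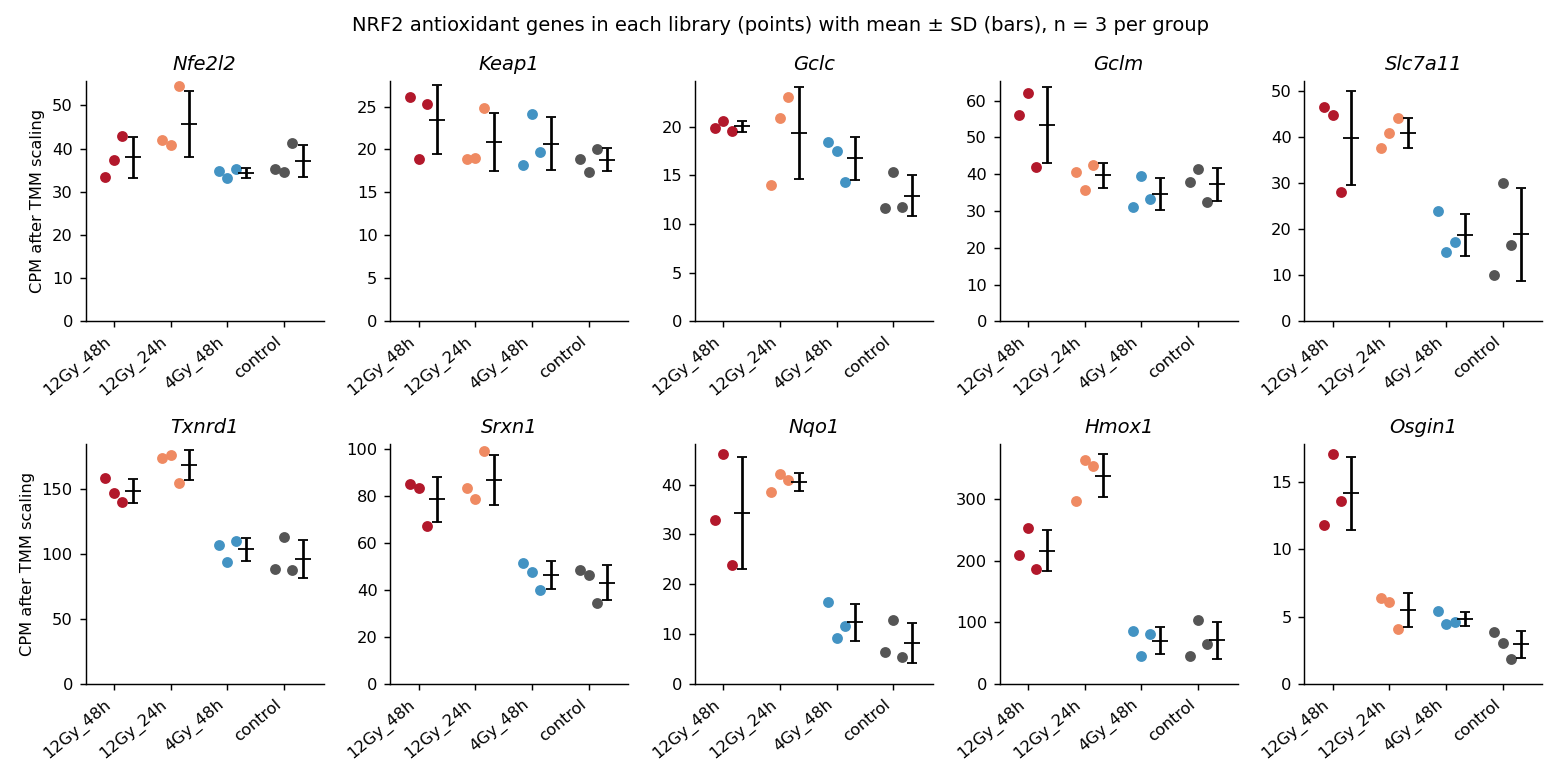
Level of each of the 10 genes in every library (points; y axis, CPM after TMM scaling, starting at 0) with the mean and SD of each group beside them, n = 3 per group. All 3 libraries of both 12 Gy groups lie above all controls for Nqo1, Hmox1, Txnrd1, Srxn1 and Osgin1, while Nfe2l2 and Keap1 overlap with control in every irradiated group. The share of all genes whose libraries separate in this way is not given.

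Another 3 members supply glutathione. Slc7a11 encodes the cystine carrier of the exchanger xCT and so brings in the amino acid that limits glutathione synthesis. It measured 46.6, 44.8 and 27.96 CPM at 12Gy_48h, 37.7, 40.8 and 44.0 CPM at 12Gy_24h and 23.9, 15.1 and 17.3 CPM at 4Gy_48h, against 10.1, 29.96 and 16.6 CPM in control. The 12Gy_24h libraries all stood above control, whereas the lowest 12Gy_48h library lay just under the highest control, and 4Gy_48h lay within the control range. Slc7a11 rose at 12Gy_48h by a log2 fold change of 1.09 (SE 0.29, edgeR adjusted p = 0.00822) and at 12Gy_24h by 1.12 (SE 0.29, 0.00378), and with known genes alone it still passed (0.0410 and 0.0412). At 4Gy_48h the log2 fold change was 0.00, with a 95% interval of -0.64 to 0.64. It was higher at 12Gy_48h than at 4Gy_48h by 1.09 (SE 0.29, adjusted p = 0.0408), a call lost without either of replicates 2 and 3 at 4Gy_48h (adjusted p 0.125 and 0.124) or either of replicates 1 and 2 at 12Gy_48h (0.131 and 0.170). Between 12Gy_48h and 12Gy_24h it differed by -0.04 (95% interval -0.61 to 0.54). Genes on both strands overlap its long locus, among them the antisense gene Gm37854.

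Gclc and Gclm encode the catalytic and the modifier subunit of glutamate-cysteine ligase, the first and rate-limiting enzyme of glutathione synthesis. Gclc measured 19.9, 20.6 and 19.6 CPM at 12Gy_48h, 14.1, 20.9 and 23.0 CPM at 12Gy_24h and 18.4, 17.5 and 14.3 CPM at 4Gy_48h, against 11.6, 15.4 and 11.8 CPM in control. The 12Gy_48h libraries sat close together and all above control, while the other irradiated groups each had a library under the highest control. It rose at 12Gy_48h by a log2 fold change of 0.64 (SE 0.19, edgeR adjusted p = 0.0187) and at 12Gy_24h by 0.58 (SE 0.20, 0.0214), and neither call held with known genes alone (0.120 and 0.235). The 12Gy_48h call also missed the threshold without the first or the third control library (0.0586 and 0.0544) and in DESeq2 (0.0549), and the 12Gy_24h call without the first control library (0.0634). At 4Gy_48h its log2 fold change was 0.38 (95% interval -0.04 to 0.80, 0.204). Gclc was the member with a rise at 12Gy_48h against control and no call against 4Gy_48h (0.26, 95% interval -0.14 to 0.66, 0.464).

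Gclm measured 56.0, 62.1 and 42.1 CPM at 12Gy_48h, 40.6, 35.8 and 42.6 CPM at 12Gy_24h and 31.2, 39.5 and 33.2 CPM at 4Gy_48h, against 37.8, 41.5 and 32.4 CPM in control. The 12Gy_48h libraries all stood above control, the lowest by little, and the other irradiated groups overlapped control. It rose at 12Gy_48h by a log2 fold change of 0.52 (SE 0.16, edgeR adjusted p = 0.0182), and was not called at 12Gy_24h (0.09, 95% interval -0.25 to 0.43, adjusted p = 0.678) or at 4Gy_48h (-0.11, -0.45 to 0.24, 0.707). Fitting known genes alone ended the 12Gy_48h call (0.153), as did leaving out the third control library (0.0613) or either of replicates 1 and 2 at 12Gy_48h (0.0550 and 0.0689). Gclm was higher at 12Gy_48h than at 12Gy_24h by 0.43 (SE 0.16, 0.0471) and than at 4Gy_48h by 0.62 (SE 0.16, 0.0340). The first of these was lost without any 1 of 5 of the 6 libraries (adjusted p 0.0958 to 0.287), all but the third at 12Gy_48h, and the second without either of replicates 1 and 3 at 4Gy_48h (0.108 and 0.114) or of replicates 1 and 2 at 12Gy_48h (0.106 and 0.179). The call between 12Gy_48h and 12Gy_24h was also lost under RLE scaling (0.0926), in DESeq2 (0.195), without a filter (0.127) and with only those 2 groups fitted (0.0511). Its promoter, printed above, holds an antioxidant response element core. The pseudogene Gm6061 on the same strand and Gm17494 on the other overlap Gclm, so its counts are uncertain to that extent.

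In the thioredoxin branch, Txnrd1 encodes the cytosolic reductase that returns oxidized thioredoxin to its reduced form. It measured 158, 147 and 140 CPM at 12Gy_48h, 174, 176 and 155 CPM at 12Gy_24h and 107, 93.5 and 110.1 CPM at 4Gy_48h, against 88.5, 113 and 87.6 CPM in control. Every 12 Gy library stood above every control and every 4Gy_48h library, and 4Gy_48h lay within the control range. Txnrd1 rose at 12Gy_48h by a log2 fold change of 0.62 (SE 0.12, edgeR adjusted p = 0.00115) and at 12Gy_24h by 0.80 (SE 0.12, 4.88e-05), and passed in both with known genes alone (0.0253 and 0.00477). At 4Gy_48h the value was 0.10 (95% interval -0.16 to 0.36), and between 12Gy_48h and 12Gy_24h -0.18 (-0.44 to 0.08). It was higher at 12Gy_48h than at 4Gy_48h by 0.52 (SE 0.12, 0.0256), which missed the threshold when any 1 of 5 of the 6 libraries was left out (0.0544 to 0.0976), all but the third at 12Gy_48h. Gm38560 overlaps it on the other strand.

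Srxn1 encodes sulfiredoxin, which restores peroxiredoxins whose cysteine has been over-oxidized. It measured 85.0, 83.5 and 67.4 CPM at 12Gy_48h, 83.3, 78.8 and 99.2 CPM at 12Gy_24h and 51.7, 47.6 and 40.2 CPM at 4Gy_48h, against 48.8, 46.4 and 34.6 CPM in control. As with Txnrd1, all 12 Gy libraries stood above all others, and the 4Gy_48h and control libraries were interleaved. Srxn1 rose at 12Gy_48h by a log2 fold change of 0.86 (SE 0.16, edgeR adjusted p = 0.000587) and at 12Gy_24h by 1.01 (SE 0.16, 5.52e-05), also with known genes alone (0.00527 and 0.00184). Its value was 0.10 at 4Gy_48h (95% interval -0.24 to 0.44) and -0.15 between 12Gy_48h and 12Gy_24h (-0.47 to 0.18). Against 4Gy_48h it was higher at 12Gy_48h by 0.76 (SE 0.16, 0.0145), a call lost without the third 4Gy_48h library (0.0702) or either of replicates 1 and 2 at 12Gy_48h (0.0600 and 0.0786). Srxn1 was the member whose window, printed above, held both motifs.

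Among the detoxifying enzymes, Nqo1 encodes the quinone reductase used as the classic reporter of NRF2 activity. It measured 32.97, 46.1 and 23.8 CPM at 12Gy_48h, 38.5, 42.2 and 40.8 CPM at 12Gy_24h and 16.4, 9.13 and 11.6 CPM at 4Gy_48h, against 6.45, 12.8 and 5.36 CPM in control. Both 12 Gy groups were far above control, the 12Gy_48h libraries were spread widely while the 12Gy_24h libraries sat close together, and the second control library overlapped 4Gy_48h. Nqo1 rose at 12Gy_48h by a log2 fold change of 2.07 (SE 0.29, 4.19-fold, edgeR adjusted p = 6.85e-05) and at 12Gy_24h by 2.31 (SE 0.29, 4.94-fold, 6.17e-06), and at 4Gy_48h had a value of 0.59 (95% interval -0.08 to 1.27, 0.221). It was higher at 12Gy_48h than at 4Gy_48h by 1.47 (SE 0.28, 0.00949), a call lost without the second 12Gy_48h library (1.20, 0.0685). Between 12Gy_48h and 12Gy_24h it differed by -0.24 (95% interval -0.76 to 0.28). The window of Nqo1 held neither motif.

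Hmox1 encodes heme oxygenase-1, which splits heme into biliverdin, iron and carbon monoxide. It measured 209, 253 and 187 CPM at 12Gy_48h, 298, 363 and 354 CPM at 12Gy_24h and 85.4, 45.4 and 81.2 CPM at 4Gy_48h, against 45.6, 104 and 64.3 CPM in control. The 12Gy_24h libraries all stood above those at 12Gy_48h, these all above control, and 4Gy_48h overlapped control, whose second library was the highest of the 3. Hmox1 rose at 12Gy_48h by a log2 fold change of 1.61 (SE 0.25, 3.05-fold, edgeR adjusted p = 0.000162) and at 12Gy_24h by 2.25 (SE 0.25, 4.76-fold, 1.95e-06). At 4Gy_48h the value was -0.01 (95% interval -0.54 to 0.52), and 12Gy_48h was above 4Gy_48h by 1.62 (SE 0.25, 0.00351). Between 12Gy_48h and 12Gy_24h Hmox1 differed by -0.64 (SE 0.24, 0.0484), lower at 12Gy_48h. This last difference missed the threshold for known genes alone (-0.59, 0.0771) and on leaving out any 1 of 5 of the 6 libraries (0.0522 to 0.136), all but the second at 12Gy_48h.

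Osgin1, an oxidative stress-induced growth inhibitor, had the lowest read count seen for any member in a library, 7 reads. It measured 11.8, 17.1 and 13.6 CPM at 12Gy_48h, 6.37, 6.06 and 4.08 CPM at 12Gy_24h and 5.45, 4.44 and 4.59 CPM at 4Gy_48h, against 3.87, 3.07 and 1.88 CPM in control. The irradiated libraries stood above all controls, and all 12Gy_48h libraries above all others. It rose at 12Gy_48h by a log2 fold change of 2.23 (SE 0.27, 4.69-fold, edgeR adjusted p = 1.87e-05) and at 12Gy_24h by 0.88 (SE 0.31, 0.0255), and had a value of 0.68 at 4Gy_48h (95% interval 0.03 to 1.34, 0.142). Fitting known genes alone ended the 12Gy_24h call (0.65, 0.158), as did leaving out the third control library (0.74, 0.0637) or the first 12Gy_24h library (0.78, 0.0818). Osgin1 was higher at 12Gy_48h than at 12Gy_24h by 1.35 (SE 0.25, 0.000775) and than at 4Gy_48h by 1.55 (SE 0.25, 0.00446), and both calls stood with known genes alone (0.000575 and 0.00347). Its window, printed above, held an AP-1 core and no antioxidant response element core. That window lies inside the gene's span, so the bases before the gene's first base were not read.

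Between the times after 12 Gy, Osgin1 and Gclm were higher and Hmox1 lower at 12Gy_48h. The Gclm call was lost in 10 of 13 alternatives and the Hmox1 call in 7, while the Osgin1 call held in all 13. There were 5.63 to 7.25 Osgin1 reads per 100 Hmox1 reads at 12Gy_48h (mean 6.54 ± 0.832, SD, n = 3), 1.15 to 2.14 at 12Gy_24h (1.65 ± 0.492) and 5.65 to 9.78 at 4Gy_48h (7.27 ± 2.21), against 2.92 to 8.49 in control (4.79 ± 3.21). The 12Gy_24h ratios lay below those of every other group, and the other groups overlapped. For the subunits of glutamate-cysteine ligase there were 2.66 ± 0.454 Gclm reads per Gclc read at 12Gy_48h, 2.15 ± 0.643 at 12Gy_24h and 2.09 ± 0.346 at 4Gy_48h, against 2.90 ± 0.309 in control. Together the 10 genes took 625 to 770.2 CPM at 12Gy_48h before scaling, 718 to 781 at 12Gy_24h and 332 to 385 at 4Gy_48h, against 296 to 432 in control. Hmox1 made up 32.4 ± 2.00% of these reads at 12Gy_48h, 41.9 ± 2.26% at 12Gy_24h and 19.2 ± 4.71% at 4Gy_48h, against 20.02 ± 5.02% in control (SD, n = 3 each). These values come from within 1 library, so TMM scaling does not enter them. The summed CPM is taken over all reads of a library, new loci included, so the differing share of new loci does enter it. All these quantities were chosen after the values had been seen and carry no test.

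**Figure D4:**
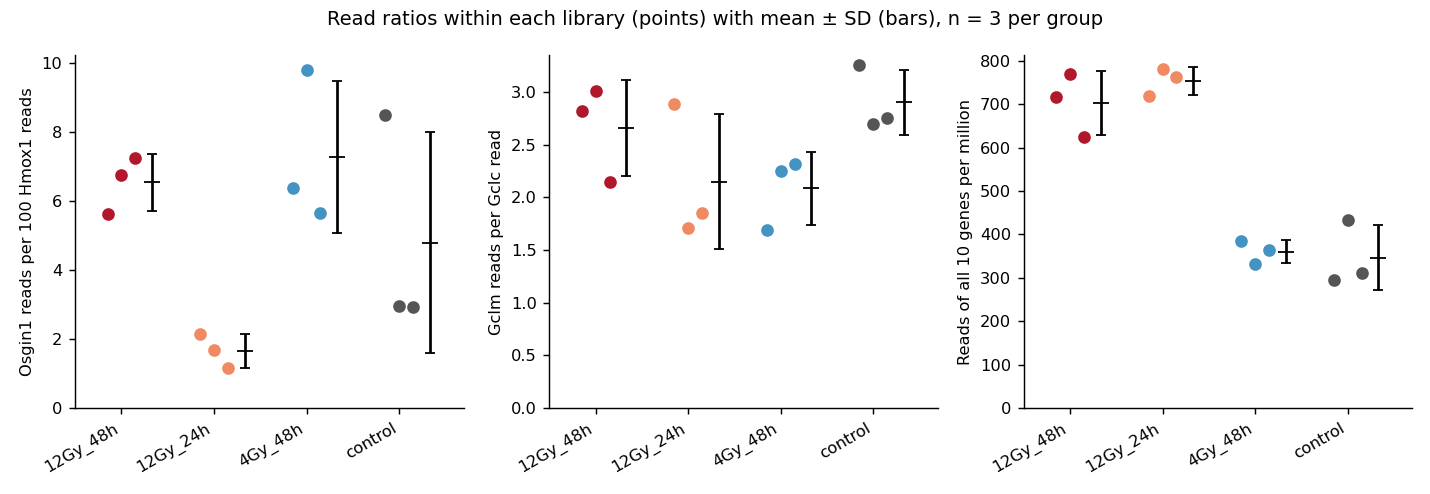
Read ratios in each library (points) with mean and SD, n = 3 per group; all y axes start at 0. Left, Osgin1 reads per 100 Hmox1 reads, lowest at 12Gy_24h (1.15 to 2.14); middle, Gclm reads per Gclc read; right, CPM of all 10 genes summed, higher in both 12 Gy groups (625 to 781) than at 4Gy_48h and in control (296 to 432).

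Spread between libraries was itself unequal. In control the coefficient of variation was 49.03% for Nqo1, 41.8% for Hmox1 and 53.6% for Slc7a11, and in each the second library was highest. At 12Gy_24h the same genes varied by 4.596%, 10.4% and 7.79%, and at 4Gy_48h by 29.7%, 31.1% and 24.5%. At 12Gy_48h they varied by 32.7%, 15.5% and 25.8%. Over 3 libraries these are descriptions, and the difference in spread was not tested.

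Beyond the members, the partners and turnover factors of NRF2 were 12 listed genes. Of these 11 were tested, as Bach1, a repressor that competes for the same sites, had 86 reads in all. At 12Gy_48h 7 were higher and none lower (median 0.43), beside 18.2% of all known genes higher and their median of 0.20, among them the small MAF partners Maff (log2 fold change 0.76, edgeR adjusted p = 0.00337) and Mafg (0.66, 0.00345), the KEAP1-binding autophagy receptor Sqstm1 (0.58, 0.00499) and Cul3, the scaffold of the KEAP1 ligase (0.51, 0.0165). With known genes alone 2 passed, Maff (0.0341) and Mafg (0.0398), beside 6.76% of known genes higher in that fit. At 12Gy_24h 4 of the 11 were higher and none lower, beside 26.5% of all known genes higher, and the list's median of 0.19 was under the 0.23 of all known genes. The 4 were Dpp3, which competes with NRF2 for KEAP1 (0.83, 0.000519), Cul3 (0.73, 0.000709), Mafg (0.57, 0.00536) and the ligase subunit Rbx1 (0.28, 0.0306), and with known genes alone Dpp3 (0.0137) and Cul3 (0.0287) passed, beside 9.15% of known genes higher in that fit. At 4Gy_48h 0 of the 11 were called by edgeR, with all genes or with known genes alone, 3 were higher and 0 lower at an unadjusted p under 0.05, and DESeq2 called 0. The edgeR shares of all known genes called higher there were 6.21%, and 0.754% with known genes alone. Maff was higher at 12Gy_48h than at 12Gy_24h (0.96, 0.000832) and than at 4Gy_48h (0.73, 0.0278), as was Sqstm1 (0.63, 0.00341, and 0.51, 0.0499). Against 4Gy_48h Sqstm1 missed the threshold with known genes alone (0.0603). Over the alternatives in that comparison the adjusted p reached 0.223 for Sqstm1 and 0.147 for Maff. Both were named here after their values had been seen.

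Of other known NRF2 targets 32 were listed and 26 tested, and 16 were higher and none lower at 12Gy_48h (median 0.56), 23 higher and 1 lower at 12Gy_24h (median 0.77) and 3 higher and none lower at 4Gy_48h (median 0.28). The shares among all known genes were 18.2%, 26.5% and 6.21% higher, and 3.74%, 3.99% and 0.877% lower. With known genes alone the counts were 11 higher and 1 lower, 16 higher and 2 lower, and 0 in either direction, the lower ones being the aldo-keto reductase Akr1b8 at both 12Gy_48h (-0.43, edgeR adjusted p = 0.0119) and 12Gy_24h (-0.34, 0.0376) and Ephx1 at 12Gy_24h. In that fit 6.76%, 9.15% and 0.754% of known genes were higher, and 8.04%, 7.91% and 0.57% lower. At 12Gy_48h those with the smallest adjusted p were the glutathione transferase Gsta4 (log2 fold change 1.96, edgeR adjusted p = 1.57e-06), the ferritin light chain Ftl1 (0.81, 8.67e-06), the pentose phosphate enzyme Pgd (1.00, 3.25e-05) and the heme transporter Slc48a1 (0.88, 5.94e-05). At 12Gy_24h they were the ferritin heavy chain Fth1 (1.15, 3.95e-07), the biliverdin reductase Blvrb (1.38, 8.28e-07), the esterase Esd (1.20, 8.37e-07) and Slc48a1 (1.15, 1.06e-06). Gsta1, another glutathione transferase, named after its values were seen, rose by 2.92 at 12Gy_48h (SE 0.43, 0.000105) and 2.73 at 12Gy_24h (SE 0.44, 6.95e-05), and had a value of -0.04 at 4Gy_48h (0.977). Gsta1 has a near-identical copy, and Ftl1 and Fth1 have processed copies in the genome, so their counts depend on how the authors shared such reads.

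At 4Gy_48h the calls among these targets were Gsta4 (0.78, edgeR adjusted p = 0.00799), the pentose phosphate enzyme Tkt (0.38, 0.0246) and thioredoxin, Txn1 (0.27, 0.0339), and with known genes alone none passed (0.102, 0.291 and 0.540). The gene lower at 12Gy_24h was the epoxide hydrolase Ephx1 (-0.60, 0.00106), and at 12Gy_48h its value was 0.29 (0.0912). At 12Gy_48h against 12Gy_24h the list had 2 genes higher, Ephx1 (0.89, 0.000110) and the glutathione transferase Gstm1 (0.75, 0.0113), and 10 lower (median -0.22), and with known genes alone 3 higher and 9 lower. Among all known genes 9.97% were higher and 15.6% lower, and with known genes alone 11.1% and 12.6%. Against 4Gy_48h, 8 were higher and none lower at 12Gy_48h (median 0.28), with the same counts for known genes alone. In that comparison 2.79% of all known genes were higher and 1.55% lower, and with known genes alone 2.91% and 3.22%. Ephx1 and Gstm1 were named after their values had been seen, and the adjusted p of the Gstm1 difference between the times reached 0.0628 over the alternatives.

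Of the antioxidant enzymes outside the NRF2 lists 21 were listed and 19 tested, and 6 were higher and 1 lower at 12Gy_48h (median 0.09), 14 higher and none lower at 12Gy_24h (median 0.53) and 1 higher and none lower at 4Gy_48h (median 0.11). Of all known genes 18.2%, 26.5% and 6.21% were higher, and 3.74%, 3.99% and 0.877% lower. Known genes alone gave 1 higher and 2 lower, 8 higher and 1 lower, and 0 in either direction. In that fit 6.76%, 9.15% and 0.754% of known genes were higher, and 8.04%, 7.91% and 0.57% lower. The share of this list that was higher at 12Gy_48h in the fit to known genes alone, 1 of 19, was near that of all known genes. At 12Gy_48h the catalase gene Cat rose by a log2 fold change of 1.12 (edgeR adjusted p = 0.00113), the peroxiredoxin Prdx5 by 0.45 (0.00399; known genes alone 0.0938) and the phospholipid hydroperoxidase Gpx4 by 0.36 (0.00404; known genes alone 0.1497), while mitochondrial thioredoxin, Txn2, fell by 0.46 (0.00710; up to 0.0512 over the alternatives). At 12Gy_24h the glutaredoxin Glrx rose by 1.23 (2.31e-06), the glutathione peroxidase Gpx1 by 0.83 (0.000112), Prdx2 by 0.81 (0.000180) and Glrx3 by 0.56 (0.000203). Gpx4 was the call at 4Gy_48h (0.31, 0.0200), lost with known genes alone (0.359). Against 12Gy_24h, 10 of the 19 were lower and none higher at 12Gy_48h (median -0.33), beside 15.6% of all known genes lower, and known genes alone left 8 lower, without Txn2 (0.0898) and Prdx4 (0.0512). In that fit 12.6% of known genes were lower. Against 4Gy_48h Cat alone was higher (1.20, 0.00949, and up to 0.0580 over the alternatives), beside 2.79% of all known genes higher.

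Slc7a11 is also a target of ATF4, the factor of the amino acid and unfolded protein stress response, so that pathway is set beside it. Of 14 listed genes 12 were tested, with 2 higher and 2 lower at 12Gy_48h (median -0.03), 2 higher and none lower at 12Gy_24h (median 0.21) and 1 higher and 1 lower at 4Gy_48h (median 0.13). Among all known genes 18.2%, 26.5% and 6.21% were higher, and 3.74%, 3.99% and 0.877% lower. The list's medians lay under those of all known genes (0.20, 0.23 and 0.14). Known genes alone gave 0 higher and 3 lower, 1 higher and 1 lower, and 0 in either direction. In that fit 6.76%, 9.15% and 0.754% of known genes were higher, and 8.04%, 7.91% and 0.57% lower. At 12Gy_48h the glutathione-degrading enzyme Chac1 fell by 1.06 on the log2 scale (edgeR adjusted p = 0.000459) and asparagine synthetase, Asns, by 0.26 (0.0476; up to 0.268 over the alternatives). Slc3a2, the partner chain of the xCT exchanger, rose by 0.44 (0.00822; known genes alone 0.122) and Sesn2 by 0.42 (0.0450; known genes alone 0.310). At 12Gy_24h the serine synthesis genes Psat1 and Phgdh rose by 0.84 (0.000100) and 0.37 (0.00238; known genes alone 0.292). At 4Gy_48h Phgdh rose by 0.29 (0.0322) and the stress factor Ddit3 fell by 0.84 (0.0332), and neither passed with known genes alone (0.449 and 0.0735). Atf4 itself was not called in any of the 5 comparisons.

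Against 12Gy_24h the ATF4 list had 1 gene higher and 5 lower at 12Gy_48h (median -0.28), and against 4Gy_48h 0 higher and 2 lower, Asns and Phgdh (median -0.18). Counted with known genes alone there were 1 higher and 4 lower against 12Gy_24h, and 0 higher and 3 lower against 4Gy_48h, where Psat1 joined them (-0.51, edgeR adjusted p = 0.0271; -0.47 and 0.0591 in the fit to all genes). Between the times the higher gene was Sesn2 (0.75, edgeR adjusted p = 0.00211), and the lower ones were Chac1 (-1.32, 8.87e-05), Psat1 (-0.90, 0.000168), Phgdh (-0.45, 0.00143), Asns (-0.47, 0.00185) and Trib3 (-0.46, 0.0356; known genes alone 0.0630), chosen by their values. For the partners and turnover factors of NRF2, the counts at 12Gy_48h were 2 higher and none lower against 12Gy_24h, and 2 higher and none lower against 4Gy_48h (1 higher with known genes alone). Beside both lists, 9.97% of all known genes were higher and 15.6% lower against 12Gy_24h, and 2.79% and 1.55% against 4Gy_48h. With known genes alone these shares were 11.1% and 12.6% against 12Gy_24h, and 2.91% and 3.22% against 4Gy_48h.

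**Figure D5:**
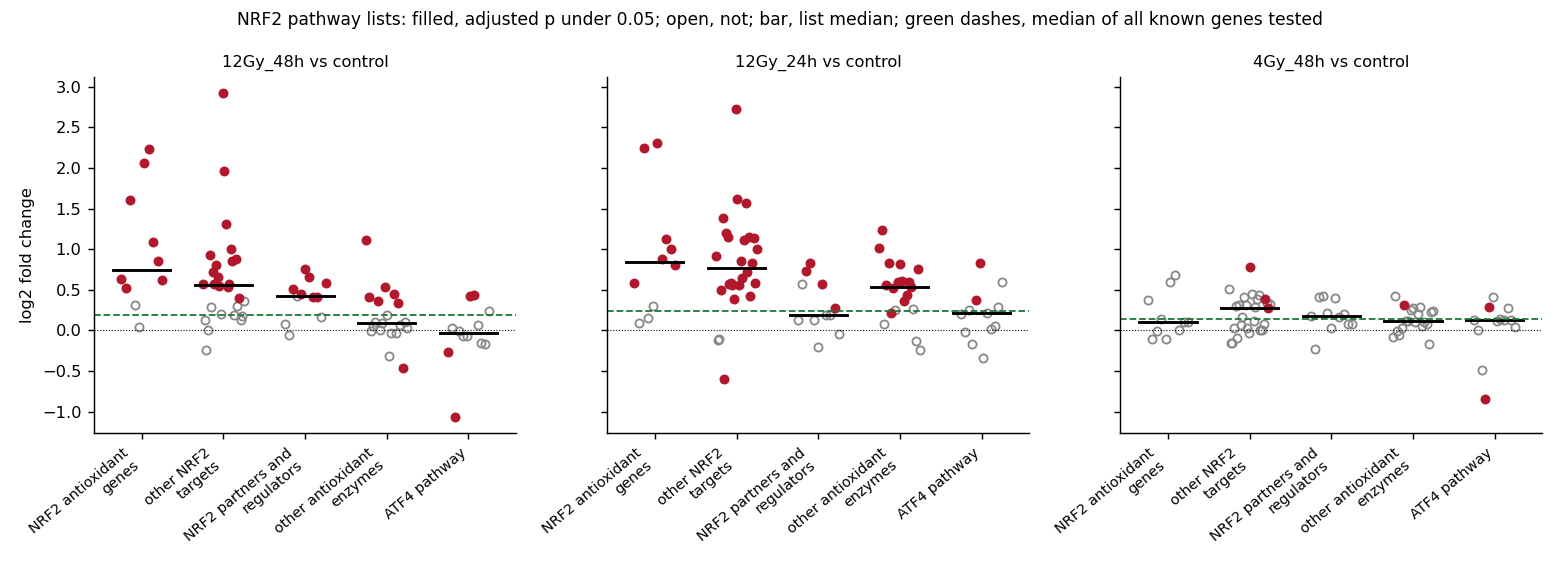
Log2 fold change against control (y axis) of the tested genes of 5 lists in the 3 irradiated groups, spread sideways for legibility. Filled points passed an adjusted p of 0.05, black bars are list medians, and the green dashed line is the median of all known genes tested (0.20, 0.23 and 0.14). The medians of the 10 members and of the other NRF2 targets lie above that line in both 12 Gy groups (0.75 and 0.56 at 12Gy_48h, 0.84 and 0.77 at 12Gy_24h).

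Likeness to 3 members was measured as the root mean square difference of the 3 log2 fold changes against control, over 6555 known genes with a mean of at least 10 CPM. Nearest to Nqo1 were Trim54 (0.39), Gsta4 (0.42) and Slc22a4 (0.52), and nearest to Hmox1 were Scand1 (0.44), Gm12184 (0.51) and Serpinb9b (0.51). Slc7a11 had closer neighbours, namely Auh (0.03), Cat (0.08) and Tmem151a (0.11). The log2 fold change of Cat, for example, was 1.12 for 12Gy_48h, 1.01 for 12Gy_24h and -0.08 for 4Gy_48h. The measure takes no account of error.

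In the authors' deposited table, whose own DESeq2 fits gave an adjusted p for all 10 members, 8 were higher and 0 lower at 12Gy_48h against control at an adjusted p under 0.05, beside 12.5% higher and 0.994% lower of the known genes given one there. The authors' deposited table had 5 members higher and 0 lower at 12Gy_24h, beside 21.1% and 1.67% of known genes. At 4Gy_48h 0 members were called in the authors' deposited table, beside 3.55% of known genes higher and 0.193% lower. For 12Gy_48h against 12Gy_24h the authors' deposited table had 1 member higher and 1 lower, beside 4.39% and 16.2% of known genes. For 12Gy_48h against 4Gy_48h the authors' deposited table had 7 members higher and 0 lower, beside 2.45% and 1.46%.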

How the data were processed

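RNA-seq of 12 MODE-K libraries, 3 per group, was analysed, with groups and replicate numbers taken from the labels. Adapter trimming used cutadapt 1.9 and read checks FastQC, per the submitters' processing notes; neither the aligner, the counting tool, the build nor the strandedness is given in the sources used here. The table, deposited by the authors, holds raw read counts per gene and library, and per the file headers it also holds CPM, which equalled the count over the library total within 4.78e-06. Its other values, deposited by the authors, are adjusted p and log2 fold changes of their own DESeq2 comparisons, and were used only where named. Of 33636 lines, 11 were overflow of a long cell with 0 reads and were left out, leaving 33625 genes, of which 10995 were new loci.

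The counts entered edgeR 4.0.16 under R 4.3.3 (low counts removed by filterByExpr, TMM scaling, glmQLFit and glmQLFTest, 1 mean per group over all 12 libraries; common biological coefficient of variation 0.144). The 15086 genes kept included 9809 known genes; the fit to known genes alone had 9816. TMM factors ran from 0.910 to 1.065. P-values were adjusted over all genes tested in each of 5 comparisons. The SE is the log2 fold change over the root of the F statistic, from which 95% intervals follow. These intervals cover the spread between these libraries. Before use the test was run on data drawn from the counts, with known changes in both directions and a fixed spread. That run did not include a shift in composition such as the differing share of new loci.

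Alternatives were known genes alone, RLE scaling, DESeq2 1.42.0, no filter, a stricter filter (at least 1 group averaging 5 CPM or more), the replicate number as a block, only the groups compared, and each library left out in turn. Gene positions were matched by Ensembl identifier to the GENCODE annotation of GRCm38, and promoter windows by symbol to RefSeq; neither is known to be the authors' annotation. Genes to name were all 10 members, up to 4 called genes of each pathway list by adjusted p in each comparison with control, and the 3 known genes nearest in pattern to Nqo1, Hmox1 and Slc7a11. The members and lists were chosen with earlier results of these data known.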

Additional observations from a re-analysis of the deposited data

Results flagged for a closer look

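Differences between the irradiated groups themselves, tested directly and not through control, were past the threshold for these members. Between the times after 12 Gy, 12Gy_48h over 12Gy_24h, the log2 difference was 1.35 for Osgin1 (edgeR adjusted p = 0.000775), 0.43 for Gclm (0.0471) and -0.64 for Hmox1 (0.0484). The Gclm and Hmox1 differences each lost the call when any 1 of 5 of the 6 libraries was left out.

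Between the doses at 48 h, 12Gy_48h over 4Gy_48h, the log2 difference was 1.62 for Hmox1 (edgeR adjusted p = 0.00351), 1.55 for Osgin1 (0.00446), 1.47 for Nqo1 (0.00949), 1.09 for Slc7a11 (0.0408), 0.76 for Srxn1 (0.0145), 0.62 for Gclm (0.0340) and 0.52 for Txnrd1 (0.0256). Without the second 12Gy_48h library 2 members were called, Hmox1 and Osgin1.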

How the results depend on the processing

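Over the 10 members and 5 comparisons, 649 alternative values were computed. Of these 569 kept their direction and their side of the threshold, 48 kept their direction and lost the call, 4 gained one, and 28 turned direction, all of them values that were called neither before nor after. The number of members higher at 12Gy_48h against 12Gy_24h was 1 in place of 2 under RLE scaling, DESeq2, no filter and only the 2 groups compared, and 1 to 2 with each library left out; the number lower was 0 in place of 1 with known genes alone, and 0 to 1 with each library left out. The number higher at 4Gy_48h against control was 0 to 1 with each library left out. For 12Gy_48h against 4Gy_48h the number higher was 2 to 7 with each library left out: 5 without the first or the second 4Gy_48h library, 3 without the third, 3 without the first 12Gy_48h library and 2 without the second. The cause of these changes was not tested.

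Fitting known genes alone turned the log2 fold changes of these members, at 12Gy_48h against control, Nfe2l2 (-0.15); at 12Gy_24h Keap1 (-0.088) and Gclm (-0.15); at 4Gy_48h Keap1 (-0.0090), Txnrd1 (-0.046), Srxn1 (-0.047) and Slc7a11 (-0.15); and Slc7a11 between the times (0.014). At 4Gy_48h Hmox1 was 0.062 without a filter, 0.038 with the replicate block and 0.012 with only the 2 groups, and Slc7a11 was -0.030 under RLE scaling, -0.014 in DESeq2 and -0.00019 with the stricter filter. Gclc between the times was -0.022 under RLE scaling, -0.050 in DESeq2 and -0.028 without a filter. With each library left out, Nfe2l2 ran from -0.046 to 0.16 at 12Gy_48h and from -0.13 to 0.018 at 4Gy_48h, where Hmox1 ran from -0.25 to 0.40, Gclm from -0.20 to 0.018 and Slc7a11 from -0.31 to 0.54. Between the times Gclc ran from -0.14 to 0.10 and Slc7a11 from -0.17 to 0.16.

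The labels give every group the same replicate numbers, but same-numbered libraries did not deviate together (correlations -0.111 to 0.125). No strong shared effect of the number was seen, and these values cannot show whether same-numbered libraries were prepared together. With the replicate number as a block, 46 of 50 values kept their direction and side of the threshold, 1 turned (Hmox1 at 4Gy_48h, above) and 3 calls were lost, Hmox1 (adjusted p = 0.0650) and Gclm (0.0574) between 12Gy_48h and 12Gy_24h, where 1 member was then higher and 0 lower, and Slc7a11 (0.0633) between 12Gy_48h and 4Gy_48h.

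There were 3 libraries a group and between 7 and 1319 reads per member and library, and Osgin1 rests on the fewest reads. The printed intervals are not limits of detection, and the smallest detectable change was not computed. A member that was not called is not thereby shown to be unchanged.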
